A study of Mus musculus with 10 samples.

Results

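The genes described here encode 10 regulators of local translation at synapses: the fragile X protein FMRP (Fmr1) and its relatives Fxr1 and Fxr2, the FMRP-binding proteins Cyfip1 and Cyfip2, the cytoplasmic polyadenylation element binding proteins Cpeb1, Cpeb2, Cpeb3 and Cpeb4, and the Pumilio protein Pum2. They form a list of names to which no threshold on a measured value was applied, and were found by Ensembl gene identifier, so that all 10 were located among the 22255 genes of the gene table. The 44 transcripts of Fmr1 and of Cpeb1 to Cpeb4 were taken from the 102392 transcripts of the transcript table. RNA came from hippocampal synaptoneurosomes, a fraction of pinched-off and resealed synaptic compartments, of C57Bl/6J mice labelled as wild type. One group of 5 libraries came from mice given AM6545 over a sub-chronic course and the other group of 5 from mice given vehicle. AM6545 blocks the cannabinoid receptor CB1 and is known to act mainly outside the brain, which it enters poorly. The labels give no dose, age, sex or batch, and do not say whether a library holds 1 animal or a pool, so p-values measure the spread between libraries. The question was whether the RNAs of these regulators differed between drug and vehicle in this fraction.

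FMRP binds mRNA along its coding sequence and represses translation, and its loss causes fragile X syndrome. Cyfip1 and Cyfip2 sit both in a complex with FMRP, which holds back initiation, and in the WAVE complex, which drives actin branching in dendritic spines. CPEB proteins bind U-rich elements in 3′ untranslated regions and control poly(A) tail length and translation of the bound mRNA. Pumilio proteins bind a different element in 3′ untranslated regions and mostly repress. Both kinds of control have been studied in the hippocampus for their part in lasting synaptic change.

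Short alternative stretches of coding sequence are among the differences between the main transcripts of several of these genes. They are shown here because the transcript comparison below refers to them. The transcripts can differ in more than these stretches. Annotated coding lengths are 1683 and 1653 bases for Cpeb1-201 and Cpeb1-203, and 2546 and 3066 for Cpeb2-201 and Cpeb2-204. For Cpeb3-201 and Cpeb3-203 they are 2148 and 1245. Capitals mark the alternative stretch and lower case the 12 bases joined to it on each side in the spliced transcript. All were read from the GENCODE M21 transcripts (GRCm38, the build named mm10), 5′ to 3′. The Cpeb2, Cpeb3 and Cpeb4 exons of 24 bases are related: Cpeb2 matched Cpeb3 at 21 of 24 positions and Cpeb4 at 21 of 24, and Cpeb3 matched Cpeb4 at 18 of 24. They lie at chr5:43268869-43268892 (plus strand), chr19:37105791-37105814 (minus strand) and chr11:31918801-31918824 (plus strand).
Cpeb2 24-base exon: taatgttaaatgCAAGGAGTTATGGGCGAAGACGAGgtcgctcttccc
Cpeb3 24-base exon: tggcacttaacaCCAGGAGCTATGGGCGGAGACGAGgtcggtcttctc
Cpeb4 24-base exon: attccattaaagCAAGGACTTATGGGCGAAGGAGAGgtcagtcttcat
A second Cpeb4 exon of 51 bases (chr11:31908825-31908875, plus strand) can join to the same neighbours in place of the 24-base exon.
Cpeb4 51-base exon: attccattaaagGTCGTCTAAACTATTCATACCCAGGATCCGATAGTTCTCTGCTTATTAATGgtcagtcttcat
Fmr1 has a 63-base exon, exon 12 of Fmr1-202 (chrX:68705861-68705923, plus strand), within the part that encodes an RNA-binding KH domain. It also has a 75-base stretch at the start of exon 14 of Fmr1-206 (chrX:68712231-68712305, plus strand), which can be skipped through a later splice acceptor and encodes the region of the main phosphorylation site of FMRP.
Fmr1 63-base exon: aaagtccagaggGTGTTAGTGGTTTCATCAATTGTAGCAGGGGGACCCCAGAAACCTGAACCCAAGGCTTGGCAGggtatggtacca
Fmr1 75-base exon start: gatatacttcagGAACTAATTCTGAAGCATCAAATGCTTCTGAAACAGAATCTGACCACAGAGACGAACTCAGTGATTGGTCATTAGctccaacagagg
Each of the 8 stretches examined had a length divisible by 3, so none of them shifts the reading frame.

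Library totals ranged from 18106112 to 25899794 estimated counts and no difference in mean between the groups was detected (two-sided exact permutation p = 0.810). Values below are CPM, counts scaled to the library total with TMM factors, unless stated. The members held between 225 counts (the lowest library of Cpeb3) and 9642 counts (the highest of Cyfip2) per library, far above a floor of 3 counts, which lay at 0.116 to 0.166 CPM. All 9 markers of excitatory neurons and synapses were detected in every library, with summed levels of 7044 to 8550 CPM in vehicle and 6858 to 7906 CPM in AM6545 libraries. Markers of other cells were present too: the 6 oligodendrocyte markers summed to 14405 to 20918 CPM in vehicle and 12230 to 28202 CPM in AM6545, and the 6 markers of choroid plexus and ependyma to 64.6 to 4929 CPM in vehicle and 640.3 to 3929 CPM in AM6545. No marker of the 8 lists was at 0 in any library, and the exact permutation p of the difference in list sums ranged from 0.444 to 0.841. In such a bulk fraction, fewer synaptic compartments of a type and less RNA in each cannot be told apart.

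No member passed the test for a change with AM6545 at the gene level. All 10 passed the filter on low counts, 0 of them had an adjusted p under 0.05 in edgeR's quasi-likelihood test with Benjamini-Hochberg adjustment, and 0 had an unadjusted p under 0.05. Over all 14358 tested genes, 0% were past the adjusted threshold, and 270 genes (1.88%) had an unadjusted p under 0.05. Of the members, 5 lay above and 5 below a fold change of 1, with a median log2 fold change of -8e-05 beside -0.0057 over all tested genes. The 95% intervals of all 10 lay between -0.35 and 0.44 on the log2 scale, so each interval excludes a rise above 1.36-fold and a fall below 0.782 times the vehicle level. The ranges of the vehicle and AM6545 libraries overlapped for each of the 10, as they did for all but 42 (0.293%) of the 14358 tested genes.

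**Figure D1:**
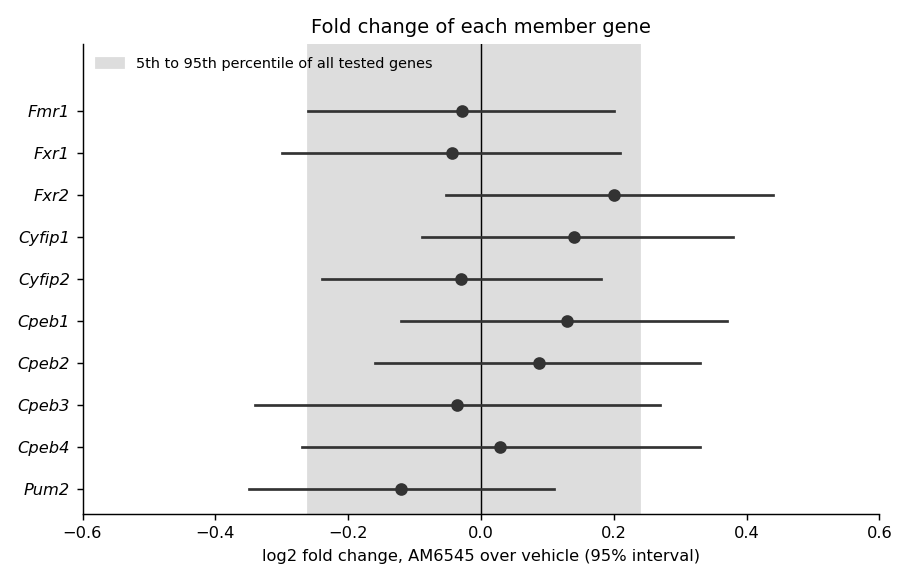
Log2 fold change of each member gene, AM6545 over vehicle (x axis), with points for the edgeR estimate, lines for the 95% interval (5 libraries per group) and a grey band for the 5th to 95th percentile of all 14358 tested genes (-0.26 to 0.24). Every interval includes 0, and all 10 points lie inside the band.

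Among the FMRP family, Fmr1 and Fxr1 had estimates near 0 and Fxr2 had the highest estimate of the 10 members. Fmr1 (ENSMUSG00000000838.18, chrX:68678541-68717963) stood at 58.4, 78.9, 66.1, 75.8 and 78.5 CPM in vehicle replicates 1 to 5 and at 72.3, 74.5, 57.4, 71.8 and 74.6 CPM in AM6545 replicates 1 to 5. One library of each group, vehicle 1 and AM6545 3, was low and the other 8 lay between 66.1 and 78.9 CPM. The means were 71.6 ± 9.01 and 70.1 ± 7.21 CPM (SD, n = 5 each), and the log2 fold change was -0.029 (SE 0.11; edgeR unadjusted p = 0.791).

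Fxr1 (ENSMUSG00000027680.16, chr3:34019943-34070322), a paralog of FMRP with the same RNA-binding domains, measured 41.3, 28.7, 31.7, 38.1 and 34.7 CPM in the vehicle libraries. Its AM6545 libraries held 32.1, 42.5, 30.4, 32.8 and 31.7 CPM. AM6545 2 was high and the other 4 drug libraries lay in the lower part of the vehicle range. Its log2 fold change was -0.043 (SE 0.12; edgeR unadjusted p = 0.725).

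Fxr2 (ENSMUSG00000018765.6, chr11:69632990-69653297), the other paralog, measured 38.7, 62.8, 46.5, 53.0 and 57.9 CPM in vehicle and 62.9, 58.0, 54.4, 59.9 and 61.4 CPM in AM6545. The vehicle libraries were spread widely while the drug libraries lay in the upper part of their range or just above it, with SDs of 9.48 and 3.29 CPM. The means were 51.8 and 59.3 CPM and the log2 fold change was 0.20 (SE 0.12, 95% interval -0.052 to 0.44; edgeR unadjusted p = 0.114, adjusted p = 0.9998). With 1 library at a time left out the estimate ranged from 0.11 to 0.27, with an unadjusted p of 0.0290 without vehicle 2 and 0.271 without vehicle 1.

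The CYFIP pair were the members of highest level per length of transcript, as given further on. Cyfip1 (ENSMUSG00000030447.16, chr7:55841745-55932602) stood at 89.0, 118, 119, 126 and 124 CPM in vehicle and 139, 138, 108, 129 and 122 CPM in AM6545. Vehicle 1 was the lowest and 3 drug libraries exceeded every vehicle library. The means were 115 ± 15.1 and 127 ± 12.7 CPM (SD, n = 5 each), with a log2 fold change of 0.14 (SE 0.11; edgeR unadjusted p = 0.209). Of the 31-base words of its transcripts, 12.9% also occur in transcripts of other genes, and its exons overlap those of Nipa2 and Gm44616 on the opposite strand, so reads there could be assigned to either gene.

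Cyfip2 (ENSMUSG00000020340.17, chr11:46193850-46312859), which shares no 31-base word with another gene, measured 335, 424, 382, 395 and 401 CPM in vehicle and 365, 427, 341, 377 and 386 CPM in AM6545. The ranges nearly coincided. Its log2 fold change was -0.03 (SE 0.10; edgeR unadjusted p = 0.761).

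Cpeb1 (ENSMUSG00000025586.18, chr7:81347026-81455465), the founding member of the family, measured 58.4, 64.2, 57.3, 63.2 and 75.3 CPM in vehicle and 82.7, 78.2, 57.4, 67.9 and 61.2 CPM in AM6545. The 2 highest libraries were AM6545 1 and 2, and AM6545 3 was as low as the lowest vehicle libraries. The log2 fold change was 0.13 (SE 0.12; edgeR unadjusted p = 0.290), and 0.048 without AM6545 1, below Cpeb2 (0.10) and Cpeb4 (0.089) in the same fit.

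Cpeb2 (ENSMUSG00000039782.16, chr5:43233170-43289724) held 22.4, 32.2, 29.2, 27.8 and 33.9 CPM in vehicle and 29.5, 35.1, 33.1, 29.8 and 27.2 CPM in AM6545. Vehicle 1 was low and the rest overlapped. Its log2 fold change was 0.087 (SE 0.12; edgeR unadjusted p = 0.467). Cpeb2, Cpeb3 and Cpeb4 form the branch of the family that carries the 24-base exon shown above.

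Cpeb3 (ENSMUSG00000039652.17, chr19:37021291-37208601), known for a prion-like N terminus and a part in memory storage, was the scarcest member, also per length of transcript, at 14.7, 13.8, 11.7, 13.1 and 16.9 CPM in vehicle and 10.9, 18.4, 14.3, 11.9 and 13.2 CPM in AM6545. Both its lowest and its highest library were drug libraries. The log2 fold change was -0.036 (SE 0.14; edgeR unadjusted p = 0.805).

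Cpeb4 (ENSMUSG00000020300.15, chr11:31872211-31935634) measured 31.9, 52.9, 39.5, 38.6 and 48.1 CPM in vehicle and 34.9, 47.5, 51.7, 45.8 and 35.6 CPM in AM6545, with a log2 fold change of 0.029 (SE 0.14; edgeR unadjusted p = 0.841). No drug library lay outside the vehicle range. Pum2 (ENSMUSG00000020594.15, chr12:8674134-8752581), a repressor that shapes dendrites, measured 46.5, 31.7, 35.4, 39.0 and 38.4 CPM in vehicle and 31.9, 39.9, 36.6, 32.8 and 34.5 CPM in AM6545. Its drug libraries also lay inside the vehicle range, and its log2 fold change was -0.12 (SE 0.11; edgeR unadjusted p = 0.284). Without vehicle 1 it was -0.042.

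**Figure D2:**
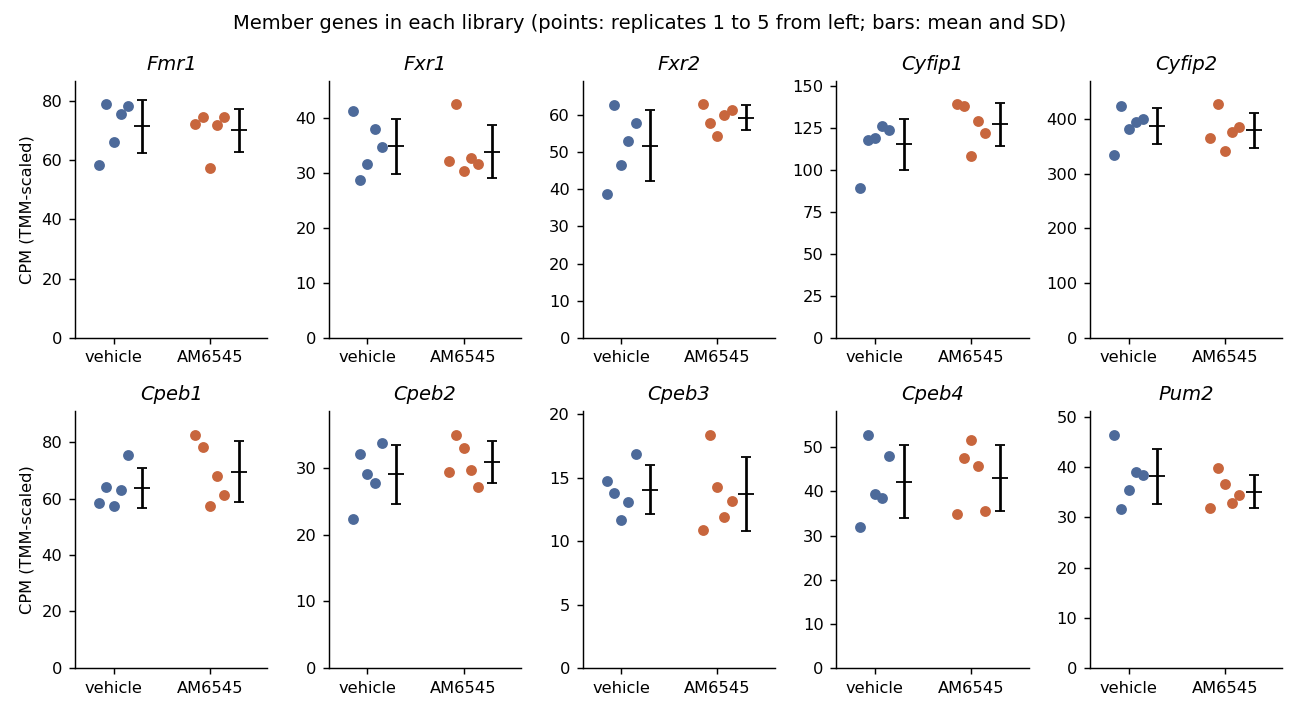
Level of each member gene in every library (y axis: CPM with TMM scaling, from 0), with points for replicates 1 to 5 from left to right and bars for the mean and SD of 5 libraries per group. In every panel the vehicle and AM6545 points overlap, and vehicle replicate 1 is the lowest point for Fxr2, Cyfip1, Cyfip2, Cpeb2 and Cpeb4.

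Several libraries stood high or low for many members at once, in both groups. Vehicle 1 was the lowest library for 5 members (Fxr2, Cyfip1, Cyfip2, Cpeb2 and Cpeb4) and the highest for Pum2. Vehicle 3 lay below the 10-library mean of log2 CPM for all 10 members, by amounts from -0.0002 (Cyfip2, in effect at its mean) to -0.24 (Fxr2). Vehicle 5 lay above it for all 10, from 0.025 (Fxr1) to 0.30 (Cpeb3), and so did AM6545 2, from 0.076 (Fxr2) to 0.42 (Cpeb3). AM6545 2 was the highest library for Fxr1, Cyfip2, Cpeb2 and Cpeb3, and AM6545 1 for Fxr2, Cyfip1 and Cpeb1. Vehicle 1 also had the highest summed level of choroid plexus and ependyma markers, 4929 CPM, and the second lowest of excitatory neuron and synapse markers, 7044 CPM. The part of this in its member levels was not tested. Without vehicle 1 the log2 estimates were 0.11 for Fxr2, 0.065 for Cyfip1, 0.10 for Cpeb1, 0.0062 for Cpeb2, 0.024 for Fxr1, -0.021 for Cpeb3, -0.042 for Pum2, -0.056 for Cpeb4, -0.078 for Cyfip2 and -0.094 for Fmr1. The signs of Fxr1 and Cpeb4 thus turned, and Fmr1 in place of Pum2 was lowest.

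**Figure D3:**
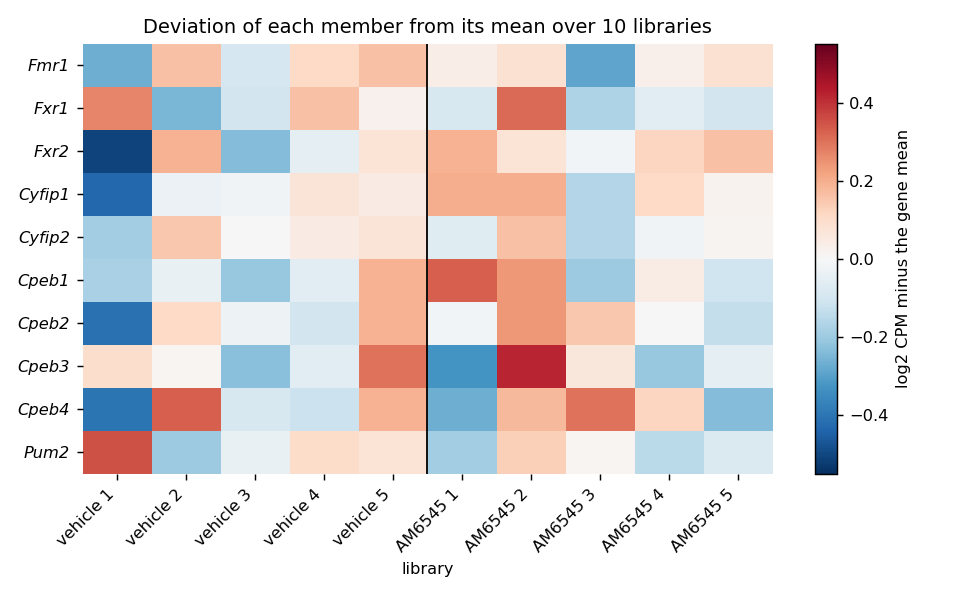
Log2 CPM of each member (rows) in each library (columns) minus the mean of that gene over the 10 libraries, with red above and blue below the mean and a black line between the groups. Vehicle 1 holds the darkest blue cells, for Fxr2 and Cyfip1, beside red cells for Fxr1 and Pum2, and vehicle 5 and AM6545 2 are above the mean in all 10 rows.

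On a per-length scale, the members spanned 22.3-fold. These levels are counts per base of transcript, scaled to a sum of 1000000 per library, with transcript lengths from GENCODE M21. Cyfip2 stood highest at 120.2 ± 15.6 (SD over 10 libraries), above Cyfip1 at 56.3 ± 8.19 in all 10 libraries and 2.14 times its mean. Cpeb1 followed at 50.8 ± 8.16, then Fxr2 at 37.1 ± 6.86, Fmr1 at 34.8 ± 5.21 and Fxr1 at 29.8 ± 2.85. The lower end held Cpeb4 at 15.7 ± 3.17, Pum2 at 12.1 ± 0.952, Cpeb2 at 8.53 ± 1.37 and Cpeb3 at 5.40 ± 1.09. The ranges of neighbours did not overlap between Cyfip2 and Cyfip1, between Fxr1 and Cpeb4, and between Pum2 and Cpeb2. All other neighbours overlapped in range, and Fxr2 exceeded Fmr1 in 6 of 10 libraries. These were all 5 AM6545 libraries and vehicle 2: the means per length were 35.1 for Fmr1 and 34.3 for Fxr2 in vehicle, and 34.6 and 40.0 in AM6545.

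Ratios within a family do not depend on the scaling of a library. There were 10 such ratios of estimated counts (3 in the FMRP family, 1 of the CYFIP pair, 6 among the CPEB genes), and they were computed after the levels of the single genes had been seen. Two-sided exact permutation tests gave an unadjusted p under 0.05 for 2 of the 10, and p of 0.294 to 0.952 for the other 8. With 5 against 5 libraries the smallest p such a test can give is 0.00794, and with 1 library left out it is 0.0159. The leave-one-out p-values below can therefore take only a few values near that floor.

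Fmr1 over Fxr2 was 1.51, 1.26, 1.42, 1.43 and 1.36 in vehicle and 1.15, 1.29, 1.05, 1.20 and 1.21 in AM6545. In 4 of 5 drug libraries the ratio lay below all vehicle libraries, and only AM6545 2 lay above vehicle 2. The means were 1.39 ± 0.0939 and 1.18 ± 0.0856 (SD, n = 5 each), a log2 difference of -0.24 (exact permutation p = 0.0159, not adjusted for the 10 ratios). With any 1 library left out the difference stayed between -0.28 and -0.20 and p between 0.0159 and 0.0317. As the background of such a ratio, Fxr2 set against each of the other 14357 tested genes gave an exact p under 0.05 for 1187 (8.27%), and Fmr1 for 546 (3.80%).

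Cyfip1 over Cyfip2 was 0.266, 0.277, 0.310, 0.320 and 0.310 in vehicle and 0.380, 0.323, 0.317, 0.343 and 0.316 in AM6545. In 3 of 5 drug libraries the ratio lay above all vehicle libraries. The means were 0.297 ± 0.0235 and 0.336 ± 0.0270 (SD, n = 5 each), a log2 difference of 0.18 (exact permutation p = 0.0238, likewise unadjusted). With any 1 library left out it stayed between 0.13 and 0.21, with p of 0.0159 to 0.0476. The share of all other tested genes whose ratio to the same gene gave an exact p under 0.05 was 3.64% for Cyfip1 and 3.71% for Cyfip2.

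The CPEB ratios showed no such separation. Cpeb1 over Cpeb4 was 1.54 ± 0.228 in vehicle and 1.67 ± 0.459 in AM6545, and Cpeb2 over Cpeb4, the steadiest of the CPEB ratios, was 0.695 ± 0.0511 and 0.728 ± 0.0854 (SD, n = 5 each; exact permutation p = 0.722 and 0.540). Cpeb1 over Cpeb3 reached 7.60 in AM6545 1, where Cpeb1 was at its highest and Cpeb3 at its lowest, against 3.98 to 5.72 in the other libraries.

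**Figure D4:**
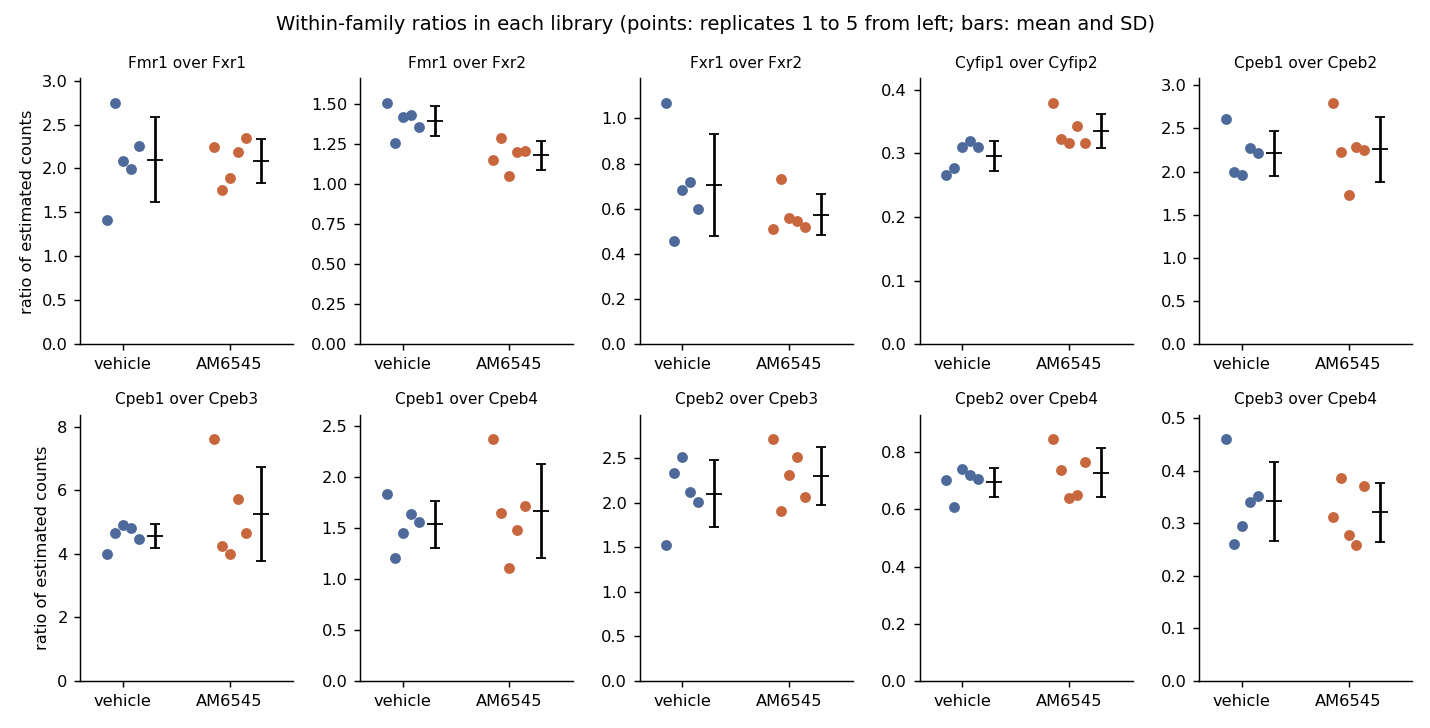
The 10 within-family ratios of estimated counts (y axis, from 0) in every library, with points for replicates 1 to 5 from left to right and bars for the mean and SD of 5 libraries per group. Fmr1 over Fxr2 is lower in AM6545 (1.18 against 1.39) and Cyfip1 over Cyfip2 higher (0.336 against 0.297), while the other 8 panels overlap broadly.

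Across the 10 libraries, levels of Fmr1, Fxr2, Cyfip1 and Cyfip2 had Pearson r of log2 CPM from 0.555 to 0.868 over their 6 pairs. This set was picked from the members after the levels were seen, and leaves out Fxr1. In vehicle 1 its genes lay at -0.27, -0.51, -0.43 and -0.19 from their means of log2 CPM, and Fxr1 at 0.27. Vehicle 1 was the lowest library for Fxr2, Cyfip1 and Cyfip2, so these r values rest in part on that library. Values of r without vehicle 1 were not computed, and whether the set moves together in the other libraries is not shown. Fmr1 and Cyfip2 had the highest r of all 45 member pairs (0.868), and Cpeb2 and Cpeb4 followed the same libraries up and down (0.851). Fxr2 and Pum2 had the lowest r (-0.772), with deviations of -0.51 and 0.35 in vehicle 1, and 31 of the 45 pairs were above 0. These libraries share a scaling and the differences in cell markers given above, and the values are a description of 10 points each.

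The tested gene whose log2 CPM was most like that of each member over the 10 libraries was in no case another member. It was Necab1 for Fmr1 (Pearson r = 0.974), Enc1 for Fxr1 (0.985), Trafd1 for Fxr2 (0.986) and Mybbp1a for Cyfip1 (0.986). For Cyfip2 it was Cbll1 (0.961), for Cpeb1 4930430F08Rik (0.964), for Cpeb2 Zik1 (0.941) and for Cpeb3 Ptpn4 (0.967). For Cpeb4 it was Lcor (0.980) and for Pum2 Rpl7 (0.970). Each was picked as the highest of 14357 correlations over 10 libraries, so a high r is partly the outcome of that choice. Shared regulation of these genes was not tested. The nearest member was closest in rank for Cpeb4, where 43 genes were more like it than Cpeb2, and farthest for Fxr2, where 889 genes were more like it than Cyfip1.

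No transcript of these genes passed the test either. Of the 44 transcripts of Fmr1 and Cpeb1 to Cpeb4, 37 had a count and 19 passed the filter. None of the 19 had an adjusted p under 0.05 in edgeR's test of levels, and 0 had an unadjusted p under 0.05 (smallest 0.198). Over all 31848 tested transcripts, 1 (0.00314%) passed the adjusted threshold and 627 (1.97%) had an unadjusted p under 0.05. The test of transcript usage, which asks whether a transcript takes another share of its gene, called 0 of the 19, with a smallest unadjusted p of 0.134 (Fmr1-203), beside 5 of 25724 transcripts overall (0.0194%), and 238 (0.925%) with an unadjusted p under 0.05.

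By the estimates, Fmr1 was carried mainly by Fmr1-206, which lacks the 63-base exon and keeps the 75-base stretch. Neither Fmr1-206 nor Fmr1-202 has a 31-base word that the other detected transcripts of the gene lack. Fmr1-206 held 65.6 ± 5.61% of the gene's estimated counts in vehicle and 64.4 ± 4.38% in AM6545 (SD, n = 5 each). Fmr1-202, which has the 63-base exon and lacks the 75-base stretch, held 17.0 ± 5.81% and 20.3 ± 2.0%, and Fmr1-201, which has both, 9.33 ± 4.59% and 10.9 ± 6.33%. Fmr1-203, which has neither, held at most 11.6% in any library, and its estimated counts were 99, 106, 148, 36 and 31 in vehicle and 81, 0, 31, 107 and 12 in AM6545. Its log2 fold change of -1.03 (SE 0.96; edgeR unadjusted p = 0.308) was within the spread of the libraries. Its log2 usage change was -1.0 (edgeR unadjusted p = 0.134). With single libraries left out it ranged from -0.61 without vehicle 3 (edgeR unadjusted p = 0.402) to -1.53 without AM6545 4 (edgeR unadjusted p = 0.0468).

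Cpeb1 was carried mainly by 1 transcript in every library. Cpeb1-203, the transcript without a 15-base exon end, held 86.2 ± 2.10% of the gene in vehicle and 86.2 ± 2.49% in AM6545, and Cpeb1-201, which has it, 8.99 ± 1.82% and 8.44 ± 2.30%, with a range of 5.6 to 12% over the libraries. Cpeb1-207, a retained-intron transcript, had the highest fold change of the gene's transcripts, 0.54 on the log2 scale (SE 0.40; edgeR unadjusted p = 0.198), from 7 to 24 counts in vehicle and 17 to 51 in AM6545 libraries.

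Cpeb2 and Cpeb3 were split in a different way in nearly every library. Cpeb2-205 was the main transcript of Cpeb2, at 64.8 ± 12.6% in vehicle and 60.6 ± 14.8% in AM6545, and was present in all 10 libraries. Cpeb2-201, the one without the 24-base exon, was estimated at 213, 53, 0, 0 and 0 counts in vehicle and 0, 0, 76, 21 and 118 in AM6545. Cpeb2-204 was at 0 in vehicle 1, where Cpeb2-201 was highest, and at 45 to 390 counts in 8 of the other libraries and 39 in AM6545 5. Neither of these transcripts has a 31-base word that the other detected transcripts of the gene lack.

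Cpeb3-201, which has the 24-base exon, was estimated at 0, 216, 86, 132 and 215 counts in vehicle and 256, 0, 118, 64 and 158 in AM6545. Cpeb3-203, which lacks it, stood at 226, 20, 96, 65 and 118 and at 0, 278, 80, 138 and 59. Where one was at 0 the other was at its highest or next to it, while in vehicle 5 both were well above 0. Their coefficients of variation over the 10 libraries were 68.2% and 84.6%, against 19.1% for their sum and 16.9% for the gene. Cpeb3-203 has no 31-base word of its own and Cpeb3-201 has 6 of 5869, counted against all other detected transcripts of the gene.

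Cpeb4-203, which carries the 51-base exon in place of the 24-base exon, held 82.8 ± 7.78% of the gene in vehicle and 81.7 ± 8.80% in AM6545, and its log2 fold change was 0.014 (SE 0.13; edgeR unadjusted p = 0.916). Cpeb4-202, which carries the 24-base exon alone, held 15.5 ± 7.55% and 16 ± 9.74%, and was at 0 in AM6545 1. Cpeb4-201, which carries both, held 1.67 ± 0.253% and 2.23 ± 1.28%. The annotated coding sequence of Cpeb4-203 is 1176 bases long and that of Cpeb4-202 is 2136, so these transcripts differ in more than the exon. Cpeb4-203 and Cpeb4-202 each have 29 words of 31 bases that other detected transcripts of the gene lack, of 5251 and 6273.

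**Figure D5:**
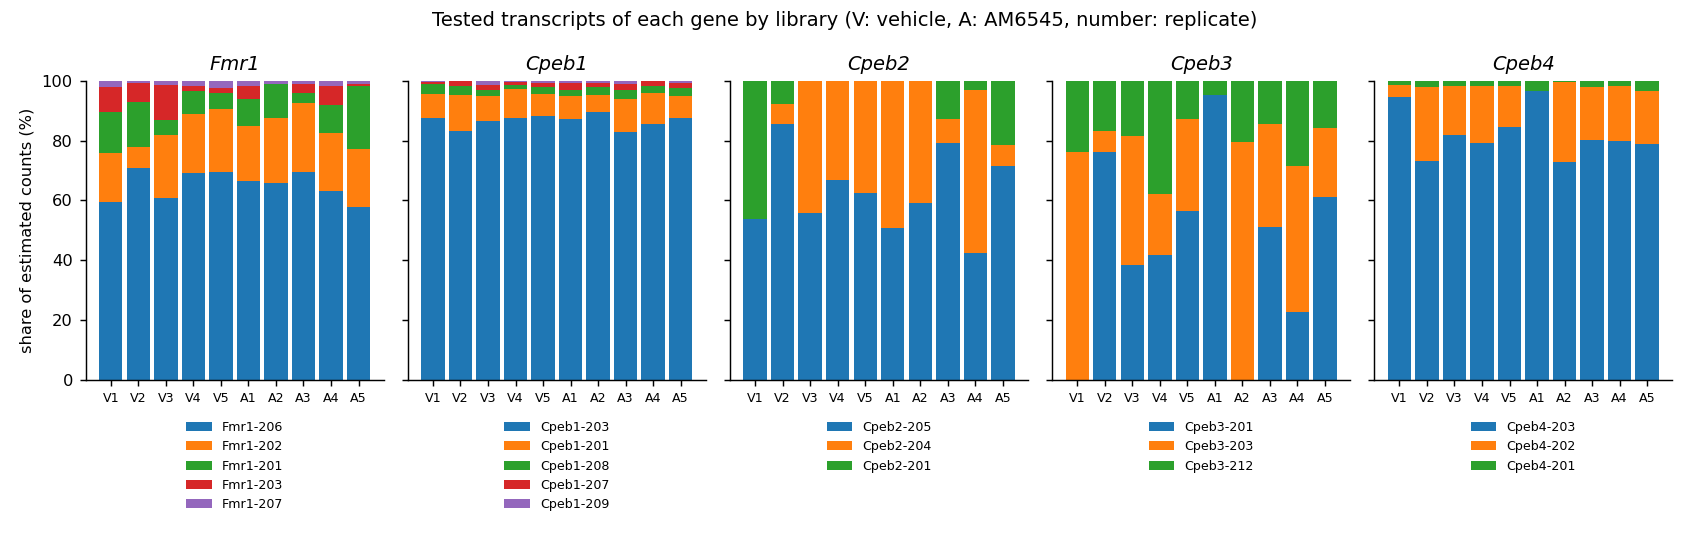
Share of estimated counts (y axis, percent of the tested transcripts of the gene) held by each tested transcript of Fmr1 and Cpeb1 to Cpeb4 in the 5 vehicle (V1 to V5) and 5 AM6545 (A1 to A5) libraries. Fmr1-206 and Cpeb1-203 lead their genes in every library, while the order of Cpeb3-201 and Cpeb3-203 changes from library to library in both groups.

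Summed over transcripts per length, the share that includes each alternative stretch was compared in 8 cases, also chosen after the transcript levels had been seen, and 0 of the 8 had an exact permutation p under 0.05. The smallest p, 0.151, was that of the Fmr1 63-base exon, included at 30.0, 21.5, 26.5, 27.3 and 26.8% in vehicle and 27.5, 33, 26.7, 28.8 and 40.0% in AM6545. AM6545 2 and 5 lay above all vehicle libraries and the other 3 inside their range. The Fmr1 75-base stretch was included at 76.3 ± 7.07% in vehicle and 76.2 ± 2.39% in AM6545 (SD, n = 5 each; exact permutation p = 0.937). All these shares are sums of whole-transcript estimates, and reads of the stretches themselves were not counted.

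The related 24-base exons of the CPEB genes had different estimated shares. In Cpeb2 the exon was included at 88.5 ± 21.2% in vehicle and 91.9 ± 10.2% in AM6545, in Cpeb3 at 61.4 ± 26.2% and 61.0 ± 30.1%, and in Cpeb4 at 16.9 ± 7.01% and 18.6 ± 6.50% (SD, n = 5 each; exact permutation p = 0.881, 1.0 and 0.683). In these estimates the order Cpeb2 above Cpeb4 held in all 10 libraries, from 51.1% as the lowest in Cpeb2 to 25.6% as the highest in Cpeb4. The Cpeb3 share ran from 19.7 to 100% and overlapped both. Cpeb2-201 and Cpeb3-203, which lack the exon, have no 31-base word of their own. Every Cpeb4 transcript carries the 24-base exon, the 51-base exon or both, so its share cannot show skipping of both. Words were counted against all other detected transcripts of the gene, also scarce ones such as Cpeb2-202 at 0.0622% of its gene. Cpeb4-202 and Cpeb4-203 have 29 words of their own each. How far the order between genes depends on the assignment of shared reads was not tested.

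The members' own mRNAs carry elements that CPEB and Pumilio proteins are known to bind. The hexamer TTTTAT, the canonical cytoplasmic polyadenylation element written as DNA, was counted on the transcript strand, overlaps included, in the 3′ untranslated region of the main transcript of each gene. Cpeb2 had 20, of which 11 lay in the last 1000 bases, and Cpeb4 had 11, of which 6 did. Of 7187 genes with a region of at least 1000 bases, 59.1% had at least 1 in that window and 1.95% had 5 or more. Cpeb3 had 6 in all, Pum2 5, Fmr1 4 and Cpeb1 2, while Fxr1, Fxr2, Cyfip1 and Cyfip2 had 0. These whole regions differ in length, from 309 bases in Cyfip1, 404 in Fxr1 and 598 in Fxr2 to 1313 in Cpeb1, 2288 in Fmr1, 2445 in Cyfip2, 2861 in Pum2, 3569 in Cpeb3, 3778 in Cpeb2 and 4102 in Cpeb4, so the counts are not a rate per base.

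The Pumilio element TGTANATA, where N is any base, occurred 2 times each in Fmr1 and Pum2 and 1 time each in Cpeb1, Cpeb2 and Cpeb3. Both Fmr1 elements lay in the last 1000 bases, as 2 or more did in 4.52% of the 7187 genes, of which 23.8% had at least 1. The Fmr1 and Pum2 sites are shown with 11 bases on each side, with capitals for the element, since they are the members with more than 1.
Fmr1 first element: gtttaaaatacTGTAGATAattaaccaagg
Fmr1 second element: gcaatattctcTGTACATAttagcgacaac
Pum2 first element: gtttatagagaTGTATATAgaattatagtt
Pum2 second element: atgtacagaatTGTATATActtataattgt
A match of letters is a description and not a measured binding site.

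The wider machinery was described with 6 lists that together held 101 genes, of which 99 were tested. None had an adjusted p under 0.05, and 2 had an unadjusted p under 0.05, both higher in AM6545, beside the 1.88% of all genes. These were Sympk and Tob2, named after their values were seen. Sympk, a scaffold of the cytoplasmic polyadenylation complex, averaged 31.2 ± 2.75 CPM in vehicle and 36.5 ± 1.17 CPM in AM6545 (SD, n = 5 each; log2 fold change 0.23, SE 0.091; edgeR unadjusted p = 0.0245, adjusted p = 0.9998). Its libraries did not overlap, at 26.6 to 33.5 CPM in vehicle and 35.1 to 37.9 CPM in AM6545. Tob2, an adaptor that brings deadenylases to CPEB-bound mRNA, averaged 25.1 ± 5.18 and 31.4 ± 3.68 CPM (log2 fold change 0.32, SE 0.13; edgeR unadjusted p = 0.0278, adjusted p = 0.9998).

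Groups that did not overlap were also found for Rps6kb1, the S6 kinase that phosphorylates FMRP, at 70.4 to 74.1 CPM in vehicle and 61.2 to 68.0 CPM in AM6545 (log2 fold change -0.17, SE 0.081; edgeR unadjusted p = 0.0549). Rps6kb1 and Sympk were the 2 such genes among the 99 tested (2.02%), and over all tested genes 42 (0.293%) had groups that did not overlap in either direction.

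Of all 14358 tested genes, 6906 had a log2 fold change above 0, which is the background for the counts below. By list, 22 partners of FMRP complexes and granules were tested, 17 of them above 0, with a median log2 fold change of 0.057. Its lowest were Ddx6, an RNA helicase of repressed granules (-0.12), and Eif4e, the cap-binding factor that Cyfip1 holds (-0.09), and its highest Dicer1, the microRNA-processing enzyme (0.29), and Caprin1, a granule protein (0.14). Of the 10 WAVE complex genes 6 were above 0, with a median of 0.03, from Brk1 (-0.19) and Wasf3 (-0.10) to Wasf1 (0.11) and Abi3 (0.16). The 23 genes of the CPEB and Pumilio machinery had a median of 0.0013, with 12 above 0. Here the poly(A)-binding proteins Pabpc4 (-0.18) and Pabpc1 (-0.11) were lowest and, beside Tob2, the deadenylase subunit Pan2 (0.30) was highest.

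Genes of FMRP phosphorylation and metabotropic glutamate signalling had a median log2 fold change of 0.059 over 14 tested, 10 of them above 0, with Rps6kb1 lowest and the kinase Eef2k and the phosphatase subunit Ppp2cb (0.16 each) highest. Known FMRP-bound mRNAs had a median of -0.018 over 21 tested, 9 above 0, from Agap2 (-0.22) to Arc (0.16) and Dlgap3 (0.17). Known CPEB- or Pumilio-bound mRNAs had a median of -0.02 over 12 tested, 4 above 0, from Grin2a (-0.15) and Eif4e (-0.09) to Actr2 and Dlg4 (0.11 each). The median over all tested genes was -0.0057, and the unadjusted edgeR p of each gene named in these lists, other than Sympk and Tob2, was above 0.05.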

How the data were processed

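RNA was sequenced from 10 libraries, 5 per group, with group and replicate number taken from the titles. Estimated counts were deposited by the authors in a gene table and a transcript table, unscaled. Salmon 1.5.2 and mm10 are named in the submitters' processing notes. Annotation release, settings and use of strand are not given in the sources used here, so a gene and an overlapping antisense gene cannot be told apart.

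Estimated counts were rounded and fitted with edgeR 4.0.16 in R 4.3.3 (TMM, filterByExpr with minimum count 10 and minimum total 15, group only, robust quasi-likelihood test, two-sided, Benjamini-Hochberg over all tested features, threshold 0.05). Transcript usage was tested with diffSpliceDGE. Standard errors are the fold change over the root of F. Single values were compared by exact permutation tests over 252 arrangements with scipy 1.17.1. The fits were tested on simulated data, where the usage test recovered few of the changed transcripts. Alternatives used DESeq2 1.42.0, limma 3.58.1, other scalings and filters, a replicate block and omission of each library.

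Symbols were found for 22155 of 22255 genes, and GENCODE M21 names for 101527 of 102392 transcripts. Coordinates, lengths and sequences are those of that release, which may not be the authors': 11 gene identifiers had the same version.

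The members and lists were chosen with earlier results of these data known. All 10 members were named. The 2 highest and 2 lowest genes of each list were named, apart from some that are not reported here, as were transcripts with 5% or more of their gene or the highest or lowest fold change in it, and the 1 gene most like each member by Pearson r of log2 CPM (prior count 2). The within-family ratios, the shares of alternative stretches, the set of correlated members and the count of groups that do not overlap were added after seeing the data. The error of assigning shared reads to transcripts is not in the tables. The kit amplifies cDNA and no molecular identifiers are named, so floors cover counting error only.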

Additional observations from a re-analysis of the deposited data

Results flagged for a closer look

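In 8 of 88 groups of 5 libraries examined, the highest or lowest library stood apart from the other 4 by more than Dixon's 95% critical value. Chance would flag about 1 in 20 groups if they were independent, here 4.40. Several groups reuse the same counts, as Cpeb2-201 and the Cpeb2 24-base exon do, so the 2 numbers cannot be weighed against each other. At the gene level these were Fmr1 at 57.4 CPM in AM6545 3 (the others 71.8 to 74.6), Fxr1 at 42.5 CPM in AM6545 2 (the others 30.4 to 32.8) and Cyfip1 at 89.0 CPM in vehicle 1 (the others 118 to 126). The ratio of Fxr1 over Fxr2 was 0.732 in AM6545 2 (the others 0.511 to 0.558). Among transcripts, Cpeb1-207 stood at 2.0 CPM in AM6545 1 (the others 0.849 to 1.18) and Cpeb2-201 at 10.3 CPM in vehicle 1 (the others 0 to 2.55). The Cpeb2 24-base exon was included at 51.1% in vehicle 1 (the others 91.4 to 100%), and the Cpeb4 24-base exon at 7.51% in AM6545 1 (the others 19.5 to 24.2%).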

How the results depend on the processing

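The members held 225 to 9642 counts per library, and the width of their intervals includes the spread between libraries. Genes past the adjusted threshold numbered 0, but 1 with limma-voom with sample quality weights (706 at an unadjusted p under 0.05) and 0 to 1 with 1 library left out. Transcripts past it numbered 1, but 11 with the DESeq2 Wald test, 0 with limma-voom, 2 without a filter, 0 with at least 10 counts in every library and 0 to 4 with 1 library left out. Usage calls numbered 5, but 2 with at least 10 counts in every library and 10 to 21 with 1 library left out. With limma-voom the log2 fold changes of Cpeb2 (-0.032), Cpeb4 (-0.062), Cpeb2-201 (2.22), Cpeb3-203 (-1.31), Cpeb4-202 (-1.65) and Cpeb4-203 (-0.021) reversed. Cpeb1-201 reversed with DESeq2 size factors (-0.0018), the DESeq2 Wald test (-0.0002) and no filter (-0.0003). The cause was not tested. The replicate numbers were not taken to pair the libraries, since not every pair correlated above 0.1. The correlation of deviations of same-numbered libraries ran from -0.186 to 0.393. Of the 10 libraries, 5 correlated best with their own number, and these values do not settle whether the numbers pair the libraries. With the replicate number as a block, 0 transcripts and 11 usage changes were called, the transcript log2 fold changes of Cpeb2-201 (3.15), Cpeb3-203 (-0.074) and Cpeb4-202 (-0.45) reversed, and the log2 usage changes of Cpeb1-203 (-0.0022), Cpeb2-201 (3.05) and Cpeb4-202 (-0.48) did so too.

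With 1 library left out at a time, some estimates crossed 0 and their ranges were as follows. Gene log2 fold changes ranged from -0.094 to 0.035 for Fmr1, -0.14 to 0.024 for Fxr1, -0.078 to 0.006 for Cyfip2, -0.16 to 0.041 for Cpeb3 and -0.056 to 0.12 for Cpeb4. Transcript log2 fold changes ranged from -0.16 to 0.57 for Fmr1-201, -0.083 to 0.14 for Cpeb1-201, -1.03 to 1.78 for Cpeb2-201, -0.18 to 0.14 for Cpeb2-205, -0.47 to 0.20 for Cpeb3-201, -0.59 to 0.69 for Cpeb3-203, -0.23 to 0.43 for Cpeb4-202 and -0.061 to 0.079 for Cpeb4-203. Log2 usage changes ranged from -0.11 to 0.56 for Fmr1-201, -0.22 to 0.008 for Cpeb1-201, -0.014 to 0.013 for Cpeb1-203, -1.16 to 1.77 for Cpeb2-201, -0.24 to 0.017 for Cpeb2-205, -0.47 to 0.40 for Cpeb3-201, -0.39 to 0.73 for Cpeb3-203, -0.22 to 0.30 for Cpeb4-202 and -0.069 to 0.026 for Cpeb4-203. Log2 ratios ranged from -0.12 to 0.12 for Fmr1 over Fxr1, -0.06 to 0.11 for Cpeb1 over Cpeb2, -0.054 to 0.22 for Cpeb1 over Cpeb4 and -0.17 to 0.033 for Cpeb3 over Cpeb4. Differences in share, in percentage points, ranged from -2.60 to 2.32 for the Fmr1 75-base stretch, -1.19 to 0.25 for the Cpeb1 15-base exon end, -1.06 to 8.70 for the Cpeb2 90-base exon, -5.93 to 7.21 for the Cpeb2, -10.08 to 10.01 for the Cpeb3 and -0.94 to 4.45 for the Cpeb4 24-base exon, and -3.87 to 1.94 for the Cpeb4 51-base exon.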
